A study of Mus musculus with 18 samples.

Results

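The genes described here are 9 members of the pathway that turns neuronal activity into transcription through CREB and links it to the neurotrophin BDNF. They are the CREB family factors Creb1, Crem and Atf1, the coactivators Crtc1, Crtc2 and Crebbp, the ligand Bdnf and the receptors Ntrk2 and Ntrk3. The genes were chosen by symbol from the deposited count tables and not by any measured value, though earlier results of these data were known. All 9 were listed among 10541 genes in the deletion table and among 10799 in the tTA::miR132 table. The tTA::miR212 table listed 4 of them (Crtc1, Crebbp, Ntrk2 and Ntrk3) among 4618 genes. Creb1, Crem, Atf1, Crtc2 and Bdnf are therefore not analysed here for tTA::miR212.

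Polyadenylated RNA was sequenced from the hippocampus of C57BL/6 mice in 3 comparisons. CaMKII-Cre::miR-132/212f/f mice, called the deletion below, carry floxed copies of the neighbouring microRNA genes and a Cre recombinase under the CaMKII promoter, which is active in forebrain excitatory neurons. tTA::miR132 and tTA::miR212 mice carry a tetracycline transactivator (tTA) and a transgene for the named microRNA, and the sources used here do not give the promoter that drives the transactivator. Each kind was compared with its own nontransgenic controls, which lack the driver as well as the change in microRNA, so effects of Cre or tTA and of the changed microRNA cannot be told apart. The sources used here give neither age nor sex. cDNA of 6 animals was pooled into 3 replicates per group, per the series design text. The tables hold 14 libraries of 18 labelled samples, with 2 per group for the deletion and tTA::miR132 and 3 per group for tTA::miR212. The libraries are numbered as in the table columns, and p-values measure the spread between these libraries, which may in part be technical.

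CREB is a transcription factor that sits on the cAMP response element (CRE) of its target genes and becomes active when kinases downstream of calcium, cAMP and growth factor receptors phosphorylate it. CREM and ATF1 are its closest relatives, the CRTC proteins are coactivators that enter the nucleus when calcineurin removes their phosphates, and CREB-binding protein (Crebbp) is a histone acetyltransferase recruited by phosphorylated CREB. BDNF is a target of CREB and also, through its receptor TrkB (Ntrk2), one of its activators, and TrkC (Ntrk3) is the receptor of neurotrophin-3. The microRNA locus is itself known as a CREB target induced by BDNF, which places these genes upstream of miR-132 and miR-212.

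Both microRNAs are shown because they share their seed, the bases with which a microRNA recognises its targets. Their genes lie on the plus strand of mouse build mm9 at chr11:74987167-74987267 (Mir132) and chr11:74986890-74986980 (Mir212), and neither is listed in the tables, so the deleted or added genes do not check the labels. The mature sequences are from RefSeq (GRCm38.p6), with the seed, bases 2 to 8, in capitals.
miR-132-3p: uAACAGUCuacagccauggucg
miR-212-3p: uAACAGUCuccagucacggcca

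Matches to this seed were searched for in the longest annotated 3′ UTR of each gene (GENCODE vM1, mm9), as GACTGTT (bases 2 to 8), ACTGTTA (bases 2 to 7 followed by A) or both overlapping. Of the 8 genes with an annotated 3′ UTR, Creb1 held 2 matches and Crtc1 held 1, and 16.3% of 19915 genes with a 3′ UTR held at least 1. Crem, Atf1, Crtc2, Bdnf, Ntrk2 and Ntrk3 held none, and no 3′ UTR of Crebbp is annotated in that release. The matches are shown because these genes could be read as targets as well as upstream regulators, with the matched bases in capitals. A match is a description of the letters only. The Creb1 matches lie in a 3′ UTR of 7169 bases at chr1:64646830-64646836 and chr1:64648133-64648139 on the plus strand. The Crtc1 match lies in a 3′ UTR of 3769 bases at chr8:72909588-72909594 on the minus strand. The median length over all genes with a 3′ UTR was 893 bases. The 3′ UTRs searched for Ntrk3 (306 bases) and Crtc2 (425 bases) were below this median, so little sequence was scanned there. That of Ntrk3 belongs to a transcript with 1839 coding bases, against 2478 for a longer one.
Creb1, first match: ggtgtttcagtGACTGTTttactccagcac
Creb1, second match: agttaacagtcACTGTTAtgtactaggaac
Crtc1: gccatccattcGACTGTTgtcagctgtcac

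Promoter windows (250 bases before to 50 after a start, RefSeq, GRCm38.p6) were found for 6 of the genes, 12 windows in all with 7 of Bdnf. The short CRE core, TGACG or CGTCA depending on the strand, stood in 2 of the 12, at 35 bases before a Bdnf start and at 90 bases before the Atf1 start. Of all 32851 windows, 20.8% held it, and 1.79% held the full palindrome TGACGTCA, which none of the 12 did. The 120 bases before one Bdnf start are shown because they end where the Bdnf entry of the tTA::miR132 table begins. The printed bases match mm9 at chr2:109532473-109532592 on the plus strand, and the entry starts at 109532593.
Bdnf, 120 bases before the start: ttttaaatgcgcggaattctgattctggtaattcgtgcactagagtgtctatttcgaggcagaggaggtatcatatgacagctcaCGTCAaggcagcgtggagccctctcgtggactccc

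Total counts were 8190899 to 14772907 per library in the deletion and tTA::miR132 tables and 1299369 to 1544923 over the transcripts kept for tTA::miR212. Deletion library 1 stood apart from the others, with 1047 genes at 0 (9.93%) against 73 to 120 in the other libraries of its table. In the tTA::miR132 table, control library 2 stood apart, with 485 genes at 0 (4.49%) against 92 to 262 in the others. Its Pearson correlations with the others on a log2 scale were 0.75 to 0.80, against 0.86 to 0.92 among those. Replicates varied widely in the deletion table (biological coefficient of variation 74.2%) and in the tTA::miR132 table (60.7%), and little in the tTA::miR212 table (8.58%). The labelled tissue was checked with markers of excitatory hippocampal neurons (Camk2a, Neurod6, Prox1, Slc17a7, Wfs1, Grin2a and Nrgn), which were all detected except for Prox1 and Grin2a, both at 0 in deletion library 1, and for Grin2a, which the tTA::miR132 table does not list. In bulk tissue, fewer cells of a type and less RNA per cell cannot be told apart.

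The first comparison asked how transcripts of these genes differ after loss of the microRNA pair from excitatory neurons. Bdnf and Ntrk3 were lower in both deletion libraries than in both controls, and Atf1, Crtc1 and Ntrk2 were higher in both. Creb1, Crem, Crtc2 and Crebbp overlapped with their controls. No gene of the 9 passed the test over all genes (edgeR's quasi-likelihood test, Benjamini-Hochberg adjusted p = 0.999 for each), and of all 10487 genes tested 0 passed (0%). Groups did not overlap for 5 of the 9, and for 32.3% of all genes. The median log2 fold change of the 9 was -0.33, and that of all genes was -0.03.

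Bdnf (NM_001048142, chr2:109533720-109567200, plus strand), the secreted ligand, had 38.7 and 125 CPM (counts scaled to a library total of 1000000) in libraries 1 and 2 of the deletion, and 162 and 170 CPM in control libraries 1 and 2. Both deletion libraries were below both controls, library 1 by far the more. The log2 fold change was -1.01 (SE 0.54), with an unadjusted p of 0.112 in edgeR's test over all genes.

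Ntrk3 (NM_182809, chr7:85445577-85722724, minus strand), the receptor of neurotrophin-3, had 58.5 and 80.7 CPM against 100 and 122 in controls. Here too both deletion libraries lay below both controls. The log2 fold change was -0.66 (SE 0.35). On the minus strand this Ntrk3 entry ends at 85445577, while that used for tTA::miR212 runs on to 85337248. It lacks that 3′ part of the gene, so it does not stand for all forms of the receptor. Ntrk2 (NM_008745, chr13:58907957-59038392, plus strand), the BDNF receptor, had 510 and 410 CPM against 334 and 374. Its deletion libraries were above both controls, with a log2 fold change of 0.41 (SE 0.23). The span of this Ntrk2 entry matches a short GENCODE transcript with 1431 coding bases, against 2466 for a long one.

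Among the transcription factors, Creb1 (NM_009952, chr1:64579378-64651122, plus strand) had 238 and 51.7 CPM in the deletion and 125 and 119 in its controls. One deletion library was thus above and the other below both controls, and the log2 fold change of 0.30 (SE 0.69) averages opposite deviations. Atf1 (NM_007497, chr15:100058290-100091679, plus strand) had 55.6 and 17.8 CPM against 12.5 and 15.3, a log2 fold change of 1.44 (SE 0.87). Both deletion libraries were above the controls, library 2 only slightly. Crem (NM_013498, chr18:3266352-3337587, minus strand), whose gene also makes the repressor ICER, had 32.1 and 25.4 CPM against 46.9 and 26.9. Its groups overlapped, with a log2 fold change of -0.33 (SE 0.63).

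Among the coactivators, Crtc1 (NM_001004062, chr8:72906257-72963472, minus strand), the CRTC most abundant in brain, had 197 and 171 CPM against 128 and 145. Both deletion libraries were higher, with a log2 fold change of 0.46 (SE 0.27). Crtc2 (NM_028881, chr3:90058203-90068047, plus strand) had 2.44 CPM in deletion library 1, which rests on 23 counts (95% Poisson interval 14.6 to 34.5 counts, counting error only), and 36.8 in library 2, against 50.9 and 32.8. Only deletion library 1 was low, while library 2 lay between the controls, and the log2 fold change was -1.10 (SE 1.19). Crebbp (NM_001025432, chr16:4084048-4213404, minus strand) had 31.7 and 80.4 CPM against 87.9 and 77.3, again low in deletion library 1 alone, with a log2 fold change of -0.55 (SE 0.53).

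**Figure D1:**
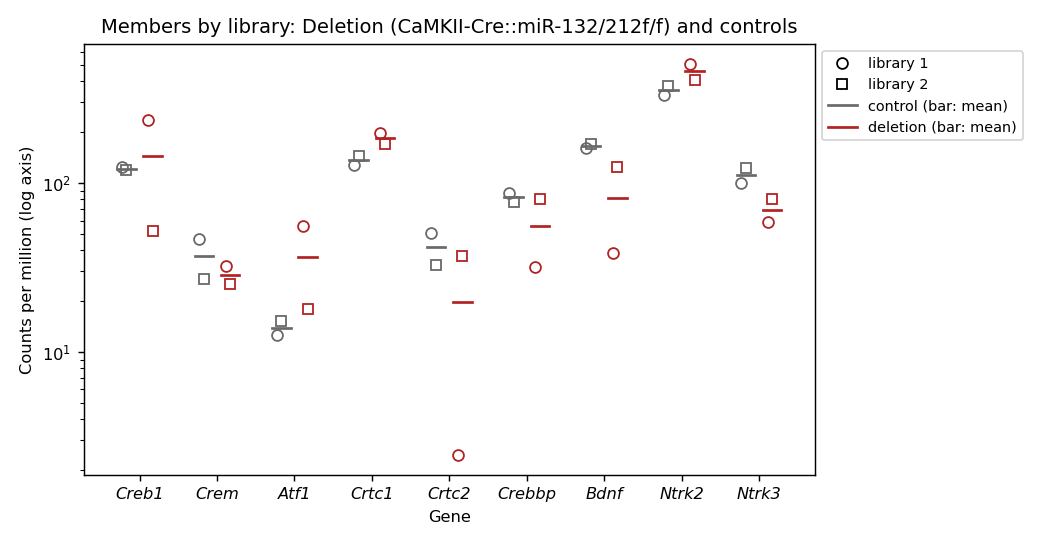
CPM (log axis) of the 9 genes in each library of the deletion table, with circles for library 1, squares for library 2, and horizontal bars for group means. The controls lie close together for Creb1, Crebbp and Bdnf. Deletion library 1 departs most from both controls for Creb1 (238), Atf1 (55.6), Crtc2 (2.44), Crebbp (31.7) and Bdnf (38.7).

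The 9 genes deviated from the control mean by a median of 0.96 in deletion library 1 and 0.34 in deletion library 2, as absolute differences of log2(CPM + 1). All genes of the table deviated by 0.83 and 0.32. Without deletion library 1 none of the 9 passed edgeR's test, and 0.0763% of all genes did. Ntrk3 was then at -0.47 (SE 0.33), Bdnf at -0.42 (SE 0.29), Atf1 at 0.35 (SE 0.78, against 1.44 with both libraries), Crtc1 at 0.31 and Ntrk2 at 0.20, and Creb1 turned to -1.25 (SE 0.35, adjusted p = 0.143 by edgeR). Crtc2 and Crebbp came to -0.20 and -0.05.

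Without deletion library 2, so with library 1 alone against the controls and its spread taken to be theirs, 7 of the 9 passed, and 43% of all genes did. Creb1 (1.03), Atf1 (2.07) and Ntrk2 (0.60) were then called higher. Crtc2 (-4.02), Crebbp (-1.32), Bdnf (-2.03) and Ntrk3 (-0.86) were called lower. Crem (-0.13) and Crtc1 (0.59) were not called. The calls therefore rest on the library that stands apart.

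**Figure D2:**
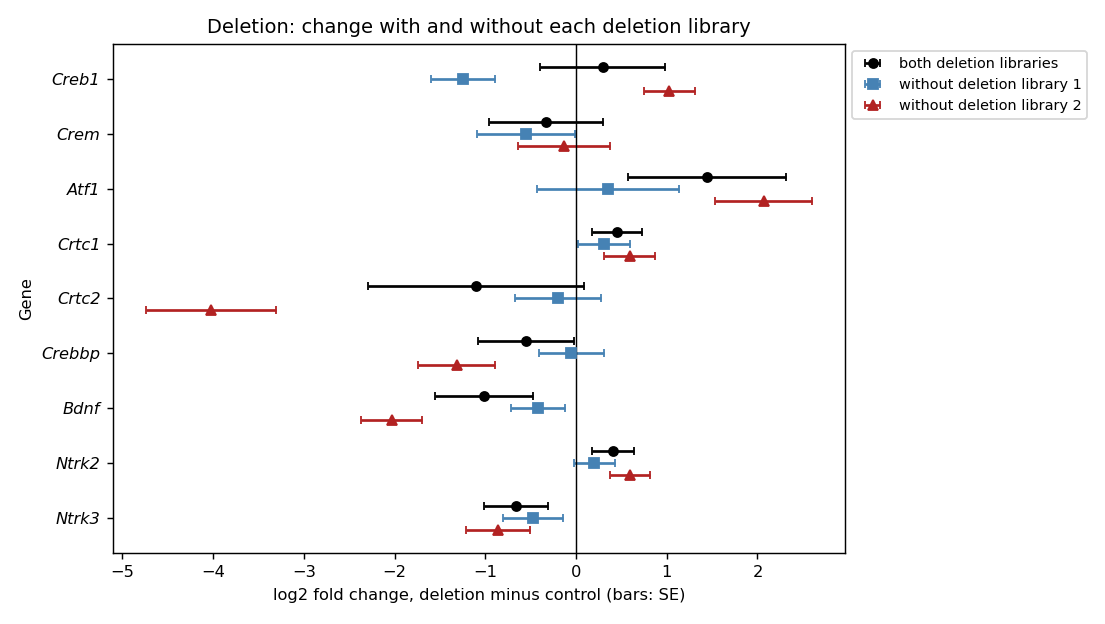
Log2 fold change (deletion minus control, bars are SE) of the 9 genes with both deletion libraries (black circles), without library 1 (blue squares) and without library 2 (red triangles). Creb1 changes sign between -1.25 and 1.03, and Crtc2 moves from -0.20 to -4.02, while Ntrk3 stays between -0.47 and -0.86.

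In the authors' deposited table, the q-value was under 0.05 for 5 of the 9 genes (Creb1, Crtc1, Bdnf, Ntrk2 and Ntrk3), and for 54.3% of all genes. Markers of other cells also differed between these groups. The summed CPM of 7 of 8 choroid plexus markers was 960 and 2495 in the deletion against 5443 and 6291 in controls (Folr1, Clic6, Otx2 and Aqp1 were at 0 in library 1, Otx2 in library 2). That of 7 of 7 excitatory neuron markers was 5389 and 4019 against 3361 and 3772, while 4 of the 7 had fitted log2 fold changes above 0 and 3 below (median 0.13, and -0.13 without library 2). Lists for interneurons, astrocytes, oligodendrocytes, microglia, vessels, and striatum and cortex overlapped between groups. The part of these differences in the values of the 9 genes was not tested.

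The other genes of the pathway were taken as lists. None of their members passed edgeR's test in the deletion comparison. Of 38 tested genes of neurotrophin processing and Trk signalling, 16 lay above 0 and 22 below (median -0.03), with 5 higher and 5 lower in both libraries (14.3% and 18% of all genes). Among the smallest p-values were those of the adaptor Shc2 and of the sorting receptor Sorcs1 (log2 fold change 1.86). Shc2 was at 53.3 and 49.2 CPM against 17.6 and 18.3 (log2 fold change 1.54, SE 0.57). Sorcs1 was at 82.7 and 20.3 CPM against 10.2 and 19.2, so library 2 was barely above the controls. Shc2 had an unadjusted p of 0.0368 (edgeR over all genes, adjusted p = 0.999), and 0.839% of all genes had one under 0.05. Without deletion library 2, 6 of this list were called higher and 9 lower, against 16% and 26.9% of all genes.

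Of 34 tested genes listed as kinases and phosphatases of CREB and CRTC, with some upstream enzymes, 19 lay above 0 and 15 below (median 0.02). Those with the smallest p were the protein kinase A subunit Prkaca (0.67), the calcineurin subunit Ppp3r1 (0.48) and the calcium-calmodulin kinase kinase Camkk2 (0.93), all higher in both deletion libraries. Of 11 tested genes listed as other CREB relatives and cofactors, 2 lay above 0 and 9 below (median -0.29). The list holds the histone deacetylase Hdac2 beside coactivators, so its direction is not that of coactivators alone. First by p were Taf4a (-1.27), Hdac2 (-0.29) and Atf6 (-0.30). Taf4a had 4.04 and 26.1 CPM against 22.5 and 49.9, and its groups overlapped, as did those of Atf6. Of 21 activity genes known to depend on CREB, 12 lay above 0 and 9 below (median 0.08), with Per1 (0.86), Fos (-1.28) and Ppargc1a (0.56) first. Fos, an immediate early gene, had 9.99 and 60.2 CPM against 93.1 and 76.9. Of 4 reported targets of these microRNAs in the pathway, 2 lay above and 2 below 0, the first by p being Sirt1 (-0.51), Arhgap32 (-0.15) and Ep300 (0.09).

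The second comparison asked how the same genes differ when miR-132 is expressed from a transgene. Ntrk3, Crem and Atf1 were lower in both tTA::miR132 libraries than in both controls. Creb1, Crtc1, Crtc2, Crebbp, Bdnf and Ntrk2 overlapped with their controls. None of the 9 passed edgeR's test (adjusted p = 0.997 to 0.999), and of all 10734 genes tested 0 passed (0%). Groups did not overlap for 3 of the 9, all lower, and for 33.1% of all genes, 14.3% lower. The median log2 fold change of the 9 was -0.15, with 2 above and 7 below 0, and that of all genes was 0.00.

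Ntrk3, counted over the same short entry as for the deletion, had 56.8 and 69.5 CPM in tTA::miR132 libraries 1 and 2. Its controls had 97.0 and 108. The groups were clearly apart, and each pair of replicates lay close together. The log2 fold change was -0.74 (SE 0.37), with an unadjusted p of 0.0671 in edgeR's test over all genes (adjusted p = 0.997), the smallest among the 9. It ranged from -0.88 to -0.61 when each library was left out in turn, with no call.

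Crem had 37.5 and 14.1 CPM against 55.7 and 42.6, a log2 fold change of -0.96 (SE 0.62). Both transgenic libraries were below both controls, and library 2 was the lower by far. The value was -0.42 without that library and -1.85 without transgenic library 1. Atf1 had 12.4 and 18.5 CPM against 18.9 and 19.3, so library 2 was barely below the controls, and the log2 fold change was -0.35 (SE 0.89). Without control library 2, which stood apart, Ntrk3 was at -0.63, Crem at -1.11 and Atf1 at -0.31.

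Creb1, which holds 2 seed matches, had 103 and 120 CPM against 108 and 126, and its log2 fold change was -0.11 (SE 0.32). Crtc1, which holds 1, had 84.7 and 145 CPM against 127 and 166, so only library 1 was low, with a log2 fold change of -0.40 (SE 0.34). This value was -0.83 without transgenic library 2 and -0.07 without library 1. Crtc2 had 34.5 and 35.6 CPM against 41.8 and 24.8, both within the controls (0.03, SE 0.59). Crebbp had 79.7 and 79.6 CPM against 79.0 and 82.6, the closest agreement of all libraries among the 9 (-0.06, SE 0.37).

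Bdnf had 146 and 144 CPM against 184 and 128, so the transgenic libraries lay between the controls (log2 fold change -0.15, SE 0.29). Its entry here is NM_001048141 (chr2:109532593-109567200), which starts at another promoter than the entry of the deletion table. Ntrk2 had 391 and 346 CPM against 399 and 312, again within the controls (0.01, SE 0.20). Its entry, NM_001025074 (chr13:58909194-59231328), spans the whole gene, unlike that of the deletion table. Bdnf and Ntrk2 are therefore listed as different transcripts in these tables, and their values were not compared.

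**Figure D3:**
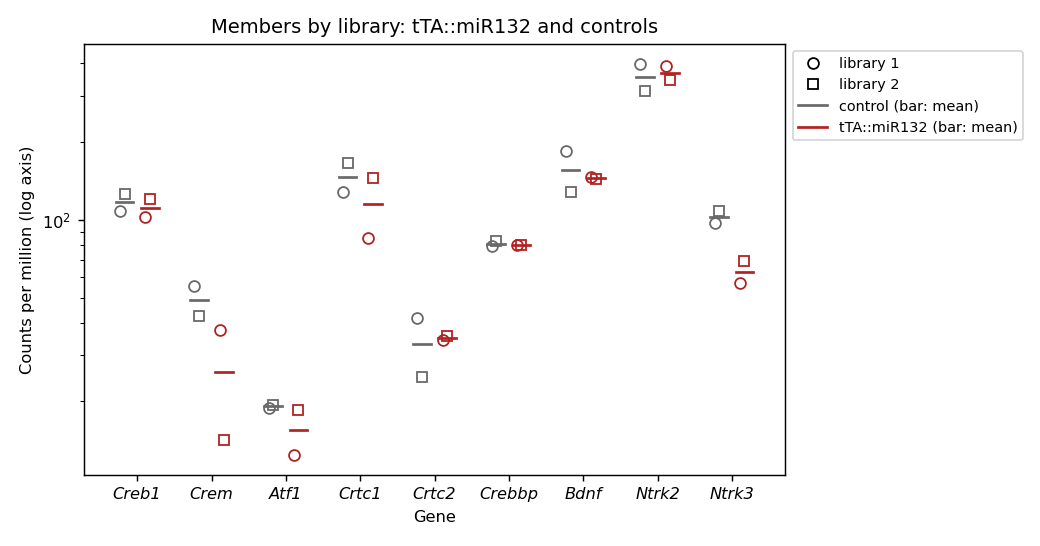
CPM (log axis) of the 9 genes in each library of the tTA::miR132 table, with circles for library 1, squares for library 2, and horizontal bars for group means. Ntrk3 is the gene with both groups tight and apart (56.8 and 69.5 against 97.0 and 108), and Crebbp has nearly equal values in all libraries.

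In the authors' deposited table, the q-value was under 0.05 for 5 of the 9 (Crem, Crtc1, Crtc2, Bdnf and Ntrk3), and for 53.1% of all genes. The summed CPM of 5 of 6 oligodendrocyte markers was 4322 and 4184 against 3462 and 3630, with none at 0. That of 6 of 7 excitatory neuron markers was 3283 and 3744 against 3867 and 4127. For 5 of 6 markers of striatum and cortex it was 354 and 265 against 225 and 181. By fitted log2 fold change, 3 oligodendrocyte markers lay above 0 and 2 below. For excitatory neurons 1 lay above and 5 below, and for striatum and cortex 5 above and 0 below. Lists for interneurons, astrocytes, microglia, vessels and choroid plexus overlapped. The part of these differences in the values of Ntrk3, Crem and Atf1 was not tested.

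No member of the pathway lists passed edgeR's test in this comparison. Of 12 genes of the list of CREB relatives and cofactors, 8 lay above 0 and 4 below (median 0.15). The stress-response factor Atf6 had 46.4 and 56.1 CPM against 93.8 and 127 (log2 fold change -1.15, SE 0.39, unadjusted p = 0.0116 and adjusted p = 0.997 by edgeR), and 2.82% of all genes had an unadjusted p under 0.05. Atf2 (-0.44) and Taf4a (1.11) followed. The Taf4a groups overlapped, with 28.6 and 44.6 CPM against 29.4 and 3.73, the low value being in control library 2. Of 35 genes of the kinase and phosphatase list, 12 lay above and 23 below 0 (median -0.08). First by p were 3 calcium-calmodulin kinases, Camk4 (-0.57), which phosphorylates CREB, Camk2b (-0.29) and Camk2a (-0.24).

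Of 37 genes of Trk signalling, 13 lay above and 24 below 0 (median -0.09), with 10 lower and 4 higher in both libraries (14.3% and 18.8% of all genes). Pik3r1 (-0.64), a regulatory subunit of PI3-kinase, Furin (-1.03), a protease that cleaves proBDNF, and Sorcs1 (-1.32) were first by p. Pik3r1 and Sorcs1 were lower in both libraries. Furin overlapped with its controls, at 40.8 and 16.2 CPM against 28.7 and 84.0. Of 20 activity genes, 6 lay above and 14 below 0 (median -0.19). Fos had 64.2 and 49.7 CPM against 26.2 and 32.8 (0.91, SE 0.52). Npas4, a factor induced by calcium, had 249 and 142 counts against 27 and 0, the 0 being in a control library with 485 genes at 0. Egr1 (-0.43) followed. Of 4 reported targets, 2 lay above and 2 below 0, with Arhgap32 (-0.44), Ep300 (0.42) and Rasa1 (0.15) first.

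The third comparison asked how the 4 genes listed for tTA::miR212 differ from their controls in 3 libraries each. All 4 overlapped with their controls, while groups did not overlap for 11.4% of all genes. None passed edgeR's test (adjusted p = 0.933 to 0.997), and of all 4618 genes tested 0 passed (0%). At an unadjusted p under 0.05 there were 0 of the 4 and 5.63% of all genes, and in the authors' deposited table the q-value was under 0.05 for 0 of the 4 and 0.0866% of all genes. The standard errors were 0.07 to 0.14 on the log2 scale, against 0.20 to 1.19 in the other tables. The median log2 fold change of the 4 was -0.04, and that of all genes was 0.00.

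Ntrk2 (ENSMUST00000078541, chr13:58909261-59235331) had 653, 652 and 680 CPM in tTA::miR212 libraries 1, 2 and 3 against 666, 649 and 654 in controls. The libraries differed little, and the log2 fold change was 0.00 (SE 0.07). Ntrk3 (ENSMUST00000039431, chr7:85337248-85723294) had 82.8, 90.0 and 80.3 CPM against 95.6, 87.0 and 92.4. Libraries 1 and 3 were below all controls and library 2 lay among them, with a log2 fold change of -0.13 (SE 0.12).

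Crtc1 (ENSMUST00000142769, chr8:72906254-72963478) had 376, 390 and 392 CPM against 427, 413 and 378, with a log2 fold change of -0.08 (SE 0.08). Transgenic library 1 was below the lowest control, and the others lay among the controls. This Crtc1 entry is not among the protein-coding transcripts of GENCODE vM1. The coding entry, ENSMUST00000076615 (1893 coding bases), was also at -0.08 with all transcripts fitted. Crebbp (ENSMUST00000023165, chr16:4084048-4213390) had 112, 118 and 161 CPM against 131.7, 112 and 112. Transgenic library 3 was the highest of all, and the log2 fold change of 0.13 (SE 0.14) was -0.06 without it.

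**Figure D4:**
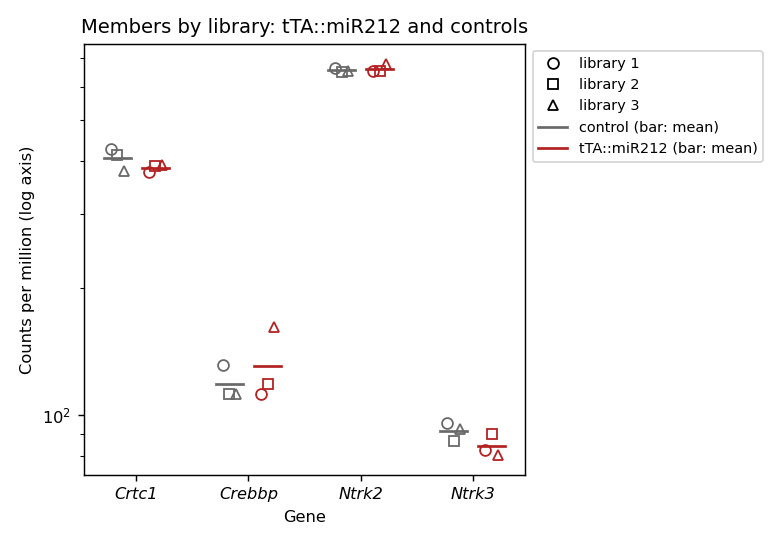
CPM (log axis) of the 4 genes in each library of the tTA::miR212 table, with circles, squares and triangles for libraries 1, 2 and 3, and horizontal bars for group means. All 4 genes overlap between groups, and Crebbp in transgenic library 3 (161) is the value farthest from its group.

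This table has several transcripts per gene, whose counts overlap in reads. The 5 transcripts of Ntrk2 had log2 fold changes of 0.00 to 0.04, the 2 of Ntrk3 of -0.21 and -0.13, the 2 of Crtc1 of -0.08 each and the 2 of Crebbp of 0.13 each, and none was called. The kept Ntrk2 transcript had the same counts in every library as ENSMUST00000079828, the long receptor form with 2466 coding bases. Truncated receptors that lack the kinase are known for both Trk genes and bind ligand without its signal, so entries with shorter coding sequences in GENCODE vM1 were set against others as a percentage of counts. The table lists the same span for the short and long entries of each receptor, and which annotation its counts used is not given in the sources at hand. The kept Ntrk2 entry itself has 1368 coding bases in GENCODE vM1, so the receptor form it counts cannot be told from its name. For Ntrk2 (ENSMUST00000109838, 1431 coding bases) this was 40.6, 41.6 and 39.1% in tTA::miR212 and 40.4, 40.1 and 37.6% in controls, overlapping ranges. For Ntrk3 (ENSMUST00000039438, 1839 coding bases, against 2478) it was 83.3, 85.6 and 67.5% against 83.1, 88.5 and 78.7%. Transgenic library 3 had the lowest Ntrk3 percentage. For these reasons, and because reads are shared, the percentages are not shares of receptor forms.

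The genes whose log2(CPM + 1) was most like that of each of the 4 over these 6 libraries, by Pearson's r among 4617 genes, are given as a description. For Crtc1 they were Smap1 (0.98), Pllp (0.97) and Atf6b (0.96). For Crebbp they were Ank2 (0.99), Grin2b (0.98) and Phyhipl (0.98), and 91 genes were over 0.9. For Ntrk2 they were Ubqln2, Phyhipl and Bace1 (0.99, 0.99 and 0.98), though Ntrk2 itself varied over a range of only 0.07 log2 units. For Ntrk3 they were Grcc10 (0.99), Brwd1 (0.97) and Fis1 (0.97). The libraries differ in depth and group, which these values share.

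Of the pathway lists, none of the members passed edgeR's test for tTA::miR212. Of 17 activity genes known to depend on CREB, 1 lay above and 16 below 0 (median -0.20, against 0.00 for all genes). The neuropeptide Sst had 272, 221 and 195 CPM against 257, 282 and 289 (log2 fold change -0.28, SE 0.11), Vgf 462, 498 and 398 against 510, 505 and 534 (-0.20, SE 0.08), and Scg2 was at -0.16. Vgf and Scg2, both products of dense-core vesicles, had no transgenic library as high as its lowest control. The direction of this list depended on single libraries: without transgenic library 2 there were 10 above and 7 below 0 (median 0.02), without library 3 there were 7 above and 10 below (median -0.09), and without library 1 the median was -0.54, with 5 of 17 called lower, as were 0.26% of all genes. The summed CPM of the 3 listed choroid plexus markers also differed within groups, at 1420, 219 and 1296 in tTA::miR212 and 1412, 1227 and 534 in controls. The other lists overlapped between groups. Their part in these values was not tested.

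Of 25 genes of Trk signalling, 18 lay above and 7 below 0 (median 0.07), with 6 higher and 0 lower in all 3 libraries than in every control (6.47% and 4.96% of all genes). The exchange factor Sos1 had 78.2, 93.2 and 104 CPM against 75.0, 77.0 and 63.6 (0.35, SE 0.14), and the adaptor Gab1 (0.37) and Sorcs2 (0.16) followed. Of 26 genes of the kinase and phosphatase list, 12 lay above and 14 below 0 (median -0.04). The calcium-activated cyclase Adcy1 was at -0.16 (SE 0.06) and the calcineurin subunit Ppp3cb at 0.18 (SE 0.08). The protein kinase A subunit Prkacb was at -0.22 (SE 0.11). Of 9 genes of the list of CREB relatives and cofactors, 4 lay above and 5 below 0. Atf4 (-0.23) and Atf2 (0.14) were among those with the smallest p. Of 4 reported targets, 3 lay above 0, with Ep300 (0.10) and Foxo3 (0.07) among those with the smallest p.

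Set side by side, the comparisons are each against their own controls and were normalised within their own tables, so differences between them were not tested. The tTA::miR212 table counts Ensembl transcripts whose listed spans for Ntrk3, Crtc1 and Crebbp are not those of the RefSeq entries in the other tables. The log2 fold change of Ntrk3 was -0.66 (SE 0.35) for the deletion, -0.74 (SE 0.37) for tTA::miR132 and -0.13 (SE 0.12) for tTA::miR212, where the libraries overlapped with their controls. Crtc1 was at 0.46 (SE 0.27) with the microRNAs deleted, and at -0.40 (SE 0.34) and -0.08 (SE 0.08) with the transgenes. Its groups overlapped for both transgenes, and the tTA::miR132 value was -0.07 without transgenic library 1. Crebbp was at -0.55 (SE 0.53), -0.06 (SE 0.37) and 0.13 (SE 0.14). Creb1, which like Crtc1 holds seed matches, was at 0.30 (SE 0.69) for the deletion and -0.11 (SE 0.32) for tTA::miR132. The deletion value of Creb1 averages opposite deviations and was -1.25 without deletion library 1. No difference of these exceeded the spread between libraries by edgeR's test.

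**Figure D5:**
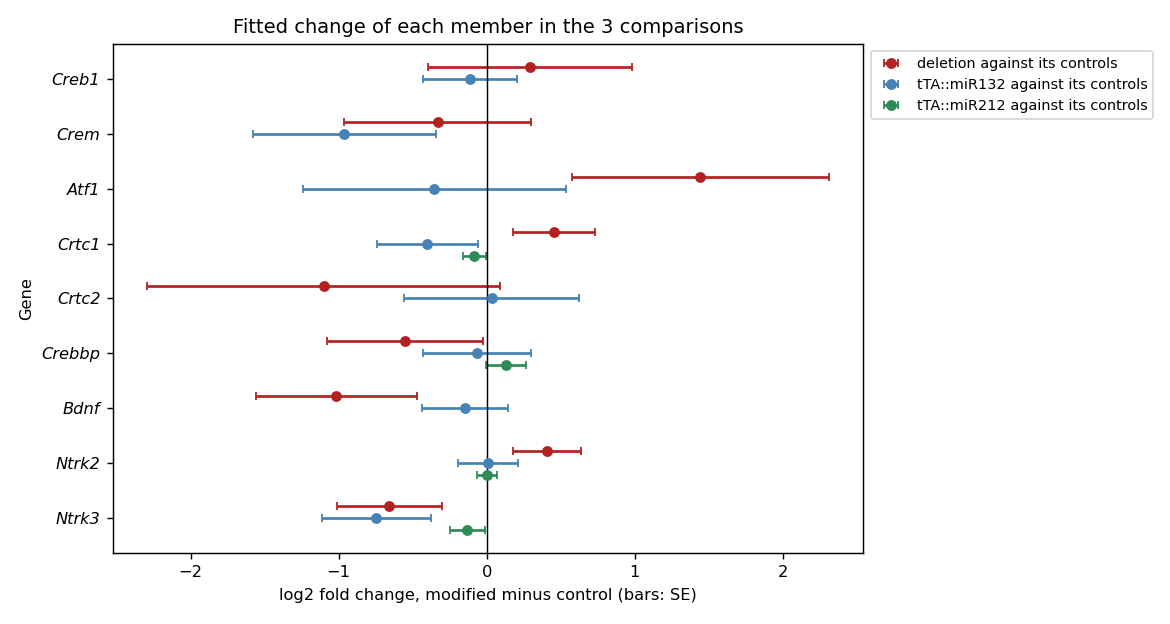
Log2 fold change (modified minus control, bars are SE) of each gene in the deletion (red), tTA::miR132 (blue) and tTA::miR212 (green) comparisons, where the last lists 4 of the 9 genes. The values for tTA::miR212 lie between -0.13 and 0.13 with the shortest bars. The fitted Ntrk3 value is below 0 in all 3, with overlapping libraries for tTA::miR212 and another transcript entry there.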

How the data were processed

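Whole-number read counts per RefSeq gene (deletion, tTA::miR132) or Ensembl transcript (tTA::miR212) were used as deposited by the authors, not normalized, per the file headers. Per the series design text, reads were aligned to mm9 with Bowtie 0.12.7. The sources used here do not give the counting tool, its annotation or the authors' filter on genes, so totals are not full depths. The authors' q-values (p-values adjusted by them) were copied per the file headers, and 14 columns of normalized values were not used. For tTA::miR212 the transcript with the highest mean count per symbol was kept. A repeated header line (1) in the deletion table was dropped. Table columns name a group and a number, so libraries were tied to groups and not to single samples.

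CPM are raw counts over library totals, which for tTA::miR212 are totals over the transcripts kept. CPM levels of that table are therefore not comparable with those of the others. Each table was fitted alone in R 4.3.3 with edgeR 4.0.16 (quasi-likelihood, TMM, filterByExpr, robust), with Benjamini-Hochberg adjustment over all genes at 0.05. Alternatives were RLE factors, no factors, no filter, DESeq2 1.42.0, limma-voom (limma 3.58.1), a replicate block, all transcripts, and each library left out. Leaving each library out for the lists was added after seeing the data. The fitting script was tested on simulated data with known changes. The simulated spread was capped well below that of the deletion and tTA::miR132 tables. This checks the script only and not what could be detected there. No pairing by replicate number was used in the main fits. The 9 genes, the lists and the tests were chosen with earlier results of these data known. All 9 genes are reported, and of each list the 3 genes with the smallest edgeR p are named, except some that are not reported here. Marker lists of 8 cell types or regions were summed, and those whose groups did not overlap or that touched a named result are given. Seed matches and CRE cores were searched for with Python 3.11.15.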

Additional observations from a re-analysis of the deposited data

How the results depend on the processing

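The number of genes called by edgeR in the deletion table (0) was 12 with DESeq2, 1 with limma-voom and 1 to 4527 when each library was left out. For tTA::miR132 (0) it was 40 with DESeq2, 3 with limma-voom, 1 with the replicate block and 0 to 111 with each library left out, 111 being without control library 1. For tTA::miR212 (0) it was 0 with both tools, 1 with the replicate block and 0 to 18 with each library left out, 18 being without transgenic library 1. At an unadjusted p under 0.05 edgeR counted 88, 303 and 260 genes. None of the 9 genes was called under another scaling, filter, tool or the block. Creb1 in the deletion turned to -0.15 with limma-voom and to -0.11 with the replicate block, and no other gene of the 9 changed direction under these. Deviations of same-numbered libraries were hardly correlated (-0.08 to 0.02), and the block is given here only. With 2 libraries per group such a correlation cannot settle whether samples were paired. With each library left out, log2 fold changes that reversed ranged from -1.25 to 1.03 for Creb1 and -0.68 to 0.12 for Crem in the deletion. For tTA::miR132 they ranged from -0.36 to 0.11 for Bdnf, -0.25 to 0.0387 for Creb1, -0.12 to 0.0008 for Crebbp, -0.27 to 0.43 for Crtc2 and -0.13 to 0.17 for Ntrk2. For tTA::miR212 they ranged from -0.0557 to 0.22 for Crebbp and -0.0214 to 0.02 for Ntrk2. The cause of these reversals was not tested. With 2 libraries per group and coefficients of variation of 74.2% and 60.7%, the standard errors of 0.20 to 1.19 limit what could be detected in the deletion and tTA::miR132 tables.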
